A study of Mus musculus with 6 samples.

Results

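The cytoplasmic ribosomal protein genes were taken from the gene table of mouse dental pulp as the protein-coding genes whose symbol is Rpl or Rps followed by a digit, together with Rplp0, Rplp1, Rplp2 and Rpsa, and without pseudogene symbols and the Rps6k kinases. This rule found 86 of the 53342 genes. They are 77 core members, 46 of the large (60S) and 31 of the small (40S) subunit, 8 paralogues of a core member (Rpl3l, Rpl7l1, Rpl10l, Rpl22l1, Rpl36al, Rpl39l, Rps27l and Rps27rt), and Rps19bp1, whose symbol fits the rule but whose product binds a ribosomal protein and is not one. Of the 86 members, 85 passed the filter on low counts. Rpl10l, a testis paralogue of Rpl10, did not pass, with 0 counts in each WT sample and 4, 4.9 and 16.3 estimated counts in the Mmp13-/- samples.

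The study sequenced pulp RNA of 3 wild-type (WT) and 3 Mmp13-/- mice at the age of 3 months to ask how loss of matrix metalloproteinase 13, a collagenase, changes the pulp transcriptome. All had the C57BL/6 background, and the study used males. The Mmp13-/- mice were homozygous for a deletion present in every cell, so that a change in pulp need not start there. The growth protocol of all samples names molars and the labels a column kit, the sample titles name molars for WT only, and the methods name incisors and TRIzol. WT samples are numbered 2, 4 and 5 and Mmp13-/- samples 1, 2 and 6, after the labels. Nothing beyond the statement of independent biological samples says whether 1 sample is 1 mouse.

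Every cytoplasmic ribosome holds 1 copy of nearly every core protein, and the mRNAs of these proteins are among the most abundant of a growing cell. Their mRNAs typically begin with a C followed by a run of pyrimidines, the 5' terminal oligopyrimidine (TOP) tract, through which mTOR and LARP1 control their translation as a group. Odontoblasts, the dentin-forming cells that line the pulp, secrete large amounts of collagen and rest on this machinery.

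Start-site sequences are shown first because the TOP tract is the sequence feature described above for these mRNAs. The annotated start base may differ from the one used in pulp. A tract missing at the annotated base therefore does not show that the mRNA lacks one. RefSeq start sites on GRCm38.p6 were matched for 57 of the 77 core members. A C at the annotated start followed by at least 4 further bases that are C or T, read on the strand of the gene, was found in 13 of the 57 (22.8%), against 813 of 27025 genes with an entry (3.01%). A run of at least 7 such bases within 15 bases on either side of the start was held by 31 of the 57 (54.4%) and by 21.3% of all genes. Below are the members that stood at the ends of the genotype comparison and have an entry, and the 2 longest tracts, each as 10 bases before and 15 bases from the annotated start, with the pyrimidine run that begins at a C in capitals. The first 3 had the largest rises of the core members with an entry, the next 6 are all core members that were lower in Mmp13-/-, and the last 2 carry the longest tracts.
Rpl39 (chrX:37085208-37085232, minus strand): gctccgcctctagcgacttcttcta
Rpl36a (chrX:134585644-134585668, plus strand): cccaggcaccgcctataaacttccg
Rps7 (chr12:28635939-28635963, minus strand): cggtttccacCCacctacttccgct
Rplp2 (chr7:141447641-141447665, plus strand): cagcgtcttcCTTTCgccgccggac
Rps13 (chr7:116334176-116334200, minus strand): caaacgtcggtgagtggcgtcactt
Rps2 (chr17:24720053-24720077, plus strand): gtcgagatctCgcgcttcttggagc
Rpl14 (chr9:120571507-120571531, plus strand): ggccctctctCTTCTCgctgagcgc
Rpl24 (chr16:55966265-55966289, plus strand): gctgttgctaggaaacagactgggc
Rpl28 (chr7:4792955-4792979, plus strand): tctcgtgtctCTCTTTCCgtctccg
Rpl15 (chr14:18270972-18270996, minus strand): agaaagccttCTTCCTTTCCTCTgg
Rpl35 (chr2:39005117-39005141, minus strand): ccgccctttcCTCTTTCTCTCgaac
At the annotated start base of Rpl39, Rpl36a, Rps13 and Rpl24 no such run begins, although pyrimidine runs lie elsewhere in some of these windows, while Rplp2, Rpl14 and Rpl28 hold runs of 5, 6 and 8 bases.

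Library totals were 28442936 to 29980236 counts in WT and 21561420 to 26547121 in Mmp13-/-, so that 3 counts, taken as the floor, corresponded to at most 0.139 CPM (counts scaled to a common library size). Mmp13 itself lay at 36.9, 39.2 and 30.2 CPM in the WT samples against 0.317, 1.10 and 2.32 CPM in Mmp13-/- (library sizes here and below scaled by trimmed mean of M values, TMM). Its log2 fold change was -4.96 ± 0.46 (SE; adjusted p = 7.67e-05, edgeR quasi-likelihood test). All 11 odontoblast markers were detected, with summed levels of 55796 to 62484 CPM in WT and 17790 to 23466 CPM in Mmp13-/-. Most of this sum was type I collagen. Col1a1 had 35399 to 42196 CPM in WT and 7919 to 10186 CPM in Mmp13-/-, and Col1a2 14382 to 18022 and 5576 to 8608 CPM. Of the 11 markers 4 rose and 4 fell. Dspp rose (log2 fold change 1.13 ± 0.40, adjusted p = 0.037, edgeR), although its genotypes overlapped. Olfactory and vomeronasal receptor genes, 1409 genes that pulp is not known to use, summed to 17.7 to 20.5 CPM of the raw totals in WT and to 299, 346 and 1163 CPM in Mmp13-/- samples 1, 2 and 6. Every Mmp13-/- sample therefore lay far above every WT sample, a difference between the genotypes that leaving out 1 sample does not remove. Mmp13-/- sample 6 stood furthest apart. The counts, the medians and the subunit difference over the members, their share of counts and the test of each gene were also computed without it, while the counts in subgroups and other gene lists and the correlations were not.

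Most members were higher in Mmp13-/- pulp. With an adjusted p under 0.05 by the edgeR quasi-likelihood test, 50 of the 85 members tested rose, 7 fell and 28 did not pass, where 27.3% of all 24534 genes tested rose and 24.3% fell. Of the members, 28 rose by more than 2-fold and 1 fell by more than 2-fold, against 20.4% and 9.68% of all genes. The median log2 fold change was 0.67 over the members, 0.10 over all genes tested and -0.01 over protein-coding genes. In 60 members every Mmp13-/- sample lay above every WT sample and in 8 every one lay below, against 31.9% and 29.1% of all genes. The plot of fold changes by subunit shows the order of the members.

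**Figure D1:**
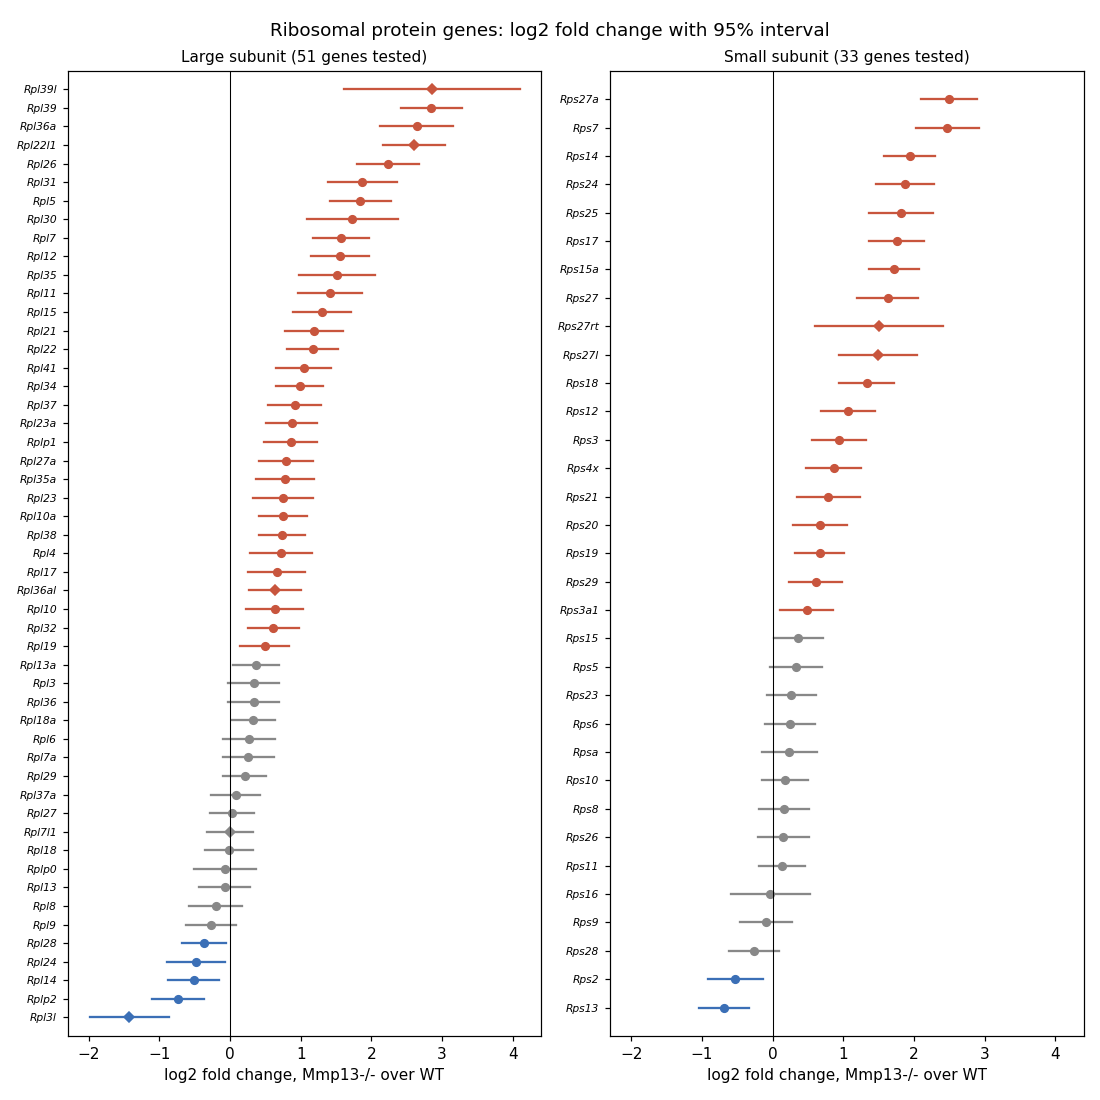
The log2 fold change of Mmp13-/- over WT (horizontal axis) for 51 large and 33 small subunit genes tested, with 95% intervals; circles are core members, diamonds paralogues, red is higher and blue lower at adjusted p under 0.05, grey did not pass. Values run from -1.42 for Rpl3l to 2.85 for Rpl39l and Rpl39.

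Calls of a rise were held more widely than calls of a fall. When each sample was left out in turn, 39 of the 50 rises and 3 of the 7 falls (Rpl3l, Rplp2 and Rps13) passed each time. The number of members that fell dropped from 7 to 3 without WT sample 4 or WT sample 5 and to 4 without Mmp13-/- sample 2. A correction of each sample for the GC content of transcripts gave 73 rises and no falls, where 29.4% and 8.04% of all genes passed and the median of all genes moved to 0.37; 31 of 38 core members with GC below their median and 36 of 39 at or above it rose. A correction for GC content and transcript length together gave 57 rises and 8 falls against 25.7% and 9.55% of all genes. Of the 50 rises, 49 were kept with the GC correction, 42 with GC content and length, and 42 under both. Of the 7 falls, 0 were kept with the GC correction, 5 with GC content and length, and 0 under both.

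Members filled 0.970%, 0.828% and 0.975% of all counts in the WT samples. The corresponding shares were 1.79%, 1.53% and 1.0% in Mmp13-/- samples 1, 2 and 6. The genotypes did not overlap, but Mmp13-/- sample 6 lay only just above the highest WT sample. The means were 0.924% ± 0.0835 and 1.44% ± 0.404 (SD, n = 3), a ratio of 1.56 that became 1.37 without Mmp13-/- sample 1 and 1.80 without sample 6. Of the counts of protein-coding genes alone, members held 1.15%, 0.960% and 1.14% in WT and 2.17%, 1.86% and 1.25% in Mmp13-/-. Within a genotype the members moved as a block, WT sample 4 being the lowest of its group for 75 of the 84 ribosomal members tested, Mmp13-/- sample 6 the lowest for 73 and sample 1 the highest for 80. In bulk tissue, more cells of a type and more RNA of these genes per cell cannot be told apart.

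Markers of several other cell types also differed between the genotypes. Of 10 proliferation markers 9 rose, their sum being 91.9 to 128 CPM in WT and 299 to 483 CPM in Mmp13-/-. Of 9 neutrophil markers 8 rose (143 to 300 and 720 to 1766 CPM), of 10 erythroid markers 8 rose (987 to 1538 and 2280 to 4334 CPM), and of 9 B cell markers 8 rose (46.3 to 51.1 and 71.9 to 97.8 CPM). No marker in these lists was at 0 in all samples. In each of these lists Mmp13-/- sample 6 had the lowest sum of its genotype, as it had for most ribosomal members, whereas the order of the other samples differed between lists. Other lists moved less evenly, with 4 of 11 odontoblast markers higher and 4 lower, 3 and 5 of 9 fibroblast and mural markers (15157 to 23568 CPM in WT, 6594 to 8915 CPM in Mmp13-/-), 1 and 2 of 6 endothelial markers (297 to 349 and 234 to 326 CPM), and 2 and 0 of 7 ameloblast markers (1505 to 4609 and 3795 to 5255 CPM). Mmp13-/- sample 6 also had the lowest sum of its genotype for endothelial, ameloblast and skeletal muscle markers. For odontoblast markers and for fibroblast and mural markers, Mmp13-/- sample 1 was the lowest. The part of any of these lists in the result was not tested.

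Beside the rise, the spread among the core members became narrower. Per kilobase of coding sequence, the median core member stood at 231, 184 and 219 CPM in the WT samples and at 371, 336 and 307 CPM in the Mmp13-/- samples. The SD of log2 levels across the 77 core members was 0.97, 1.07 and 0.98 in WT, against 0.75, 0.73 and 0.76 in Mmp13-/-. The ratio of the 90th to the 10th percentile of levels was 4.93, 6.43 and 5.0 in WT and 2.82, 2.81 and 2.65 in Mmp13-/-. On each of these measures no sample of a genotype reached the other genotype's range, which in a design of 3 against 3 samples has a smallest possible exact permutation p of 0.10, so no test was made.

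**Figure D2:**
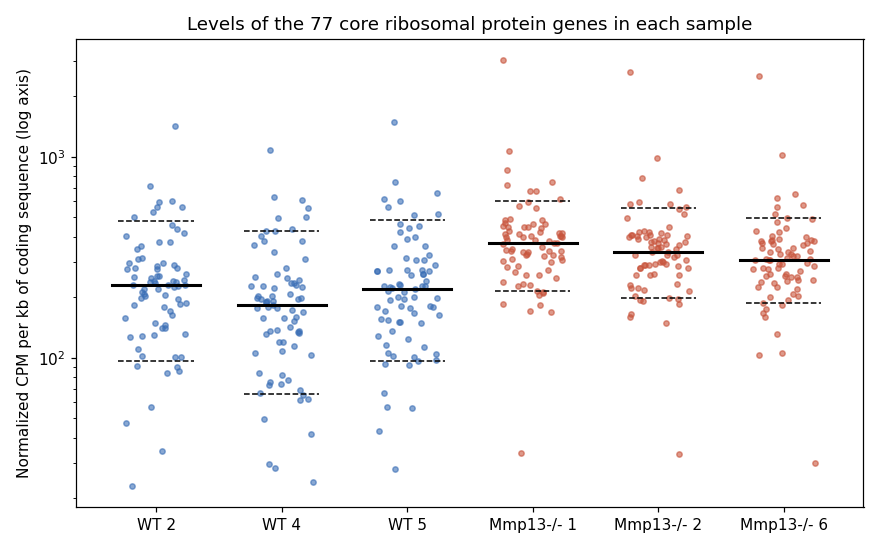
Normalized CPM per kilobase of coding sequence (log axis) of the 77 core members in each sample; each point is a gene, thick bars are medians and dashed bars the 10th and 90th percentiles. Medians lie between 184 and 231 in WT and between 307 and 371 in Mmp13-/-, and the dashed bars lie closer together in Mmp13-/-.

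The 10th percentile rose by a larger factor than the 90th. It was 96.7, 66.3 and 96.5 CPM per kilobase in WT and 214, 198 and 186 in Mmp13-/-. The 90th was 477, 426 and 483 against 603, 556 and 494. Because the median rose too, these levels do not show that the narrowing came mainly from 1 end. Across the 77 core members, the log2 fold change and the mean WT level had a Spearman correlation of -0.71. It was -0.69 when the fold change, but not the WT level, was corrected for GC content and length. These 2 quantities share the WT samples, and the genes share libraries and depth. Ranks of the WT and Mmp13-/- means correlated at 0.42. Levels also tracked base composition differently, the correlation with transcript GC content being 0.26, 0.32 and 0.29 in the WT samples and -0.08, -0.08 and -0.05 in the Mmp13-/- samples. GC content of core transcripts ran from 41.3% to 60.8%. Of the 39 core members at or above the median GC content, 16 rose and 4 fell (median log2 fold change 0.33), and of the 38 below it 29 rose and 2 fell (0.87). The measures of spread were not recomputed after a correction, so what the GC content of the libraries contributes to the narrowing was not tested.

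**Figure D3:**
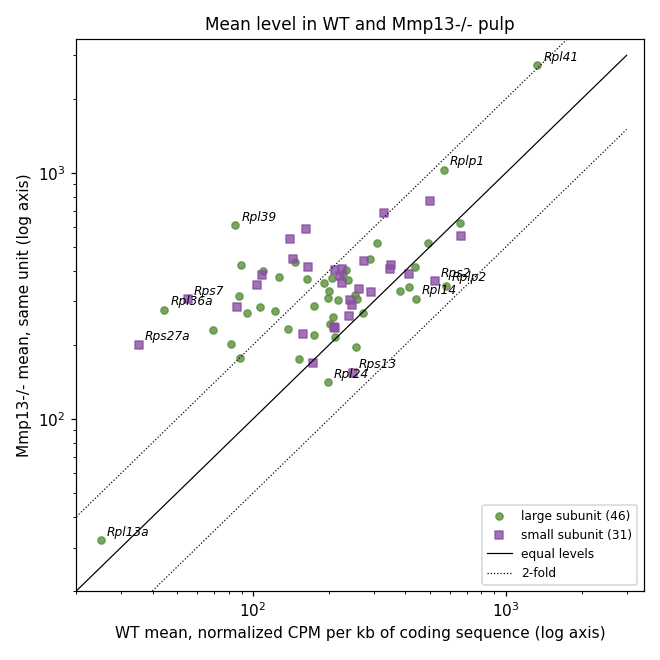
Mean level in Mmp13-/- against mean level in WT, both as normalized CPM per kilobase of coding sequence on log axes, for 46 large (circles) and 31 small subunit (squares) core members, with lines of equal levels and of a 2-fold difference. Members that are low in WT, such as Rpl39, Rpl36a, Rps27a and Rps7, lie above the upper line, and Rplp2, Rps2 and Rpl14, high in WT, lie below the line of equal levels.

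Both subunits rose. In the large subunit 28 of 46 core members rose and 4 fell, with a median log2 fold change of 0.73, and in the small subunit 17 of 31 rose and 2 fell, with a median of 0.61. The difference of the medians, 0.12 for large minus small, became -0.07 with the GC correction and 0.01 with the GC and length correction. The summed level of the large over that of the small subunit, per kilobase of coding sequence, was 1.54, 1.51 and 1.53 in WT and 1.53, 1.53 and 1.60 in Mmp13-/-, and the ranges overlap. The highest member on this scale was Rpl41, whose coding sequence has 75 bases. It stood at 1423, 1080 and 1488 CPM per kilobase in WT and at 3032, 2643 and 2535 in Mmp13-/-. This ratio was not recomputed without Rpl41. Scaled by transcript length and library in place of coding length (TPM) the same ratio was 1.44, 1.41 and 1.41 in WT and 1.34, 1.34 and 1.40 in Mmp13-/-, where the lowest WT value lay just above the highest Mmp13-/- value.

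Among large subunit proteins, the largest rise of a core member was that of Rpl39, a very small protein in the wall of the tunnel through which the new peptide leaves. Rpl39 (GRCm38 chrX:37082520-37085402) stood at 12.9, 9.97 and 16.1 CPM in the WT samples, against 103, 91.4 and 86.6 CPM in Mmp13-/-. Every Mmp13-/- sample was above every WT sample, and the log2 fold change was 2.85 ± 0.19 (SE; adjusted p = 2.1e-05, edgeR). Per kilobase of coding sequence, Rpl39 ranked 71 among the members in WT and 6 in Mmp13-/-. Of the 8 core members listed for the tunnel and its exit (Rpl4, Rpl17, Rpl19, Rpl23a, Rpl26, Rpl31, Rpl35 and Rpl39) 8 rose, with log2 fold changes from 0.49 to 2.85 and a median of 1.19, against 20 of 38 other large subunit core members and a median of 0.62. The contrast in counts was smaller after correction. With the GC correction 8 of 8 and 32 of 38 rose (medians 1.86 and 1.06). With GC content and length 7 of 8 and 28 of 38 rose (1.27 and 0.52). Of the 8, Rpl4, Rpl17 and Rpl19 were lost without WT sample 4 (adjusted p = 0.0871, 0.0843 and 0.161, edgeR) or without Mmp13-/- sample 1 (0.0751, 0.0733 and 0.154). Rpl4 was also lost without WT sample 5 (0.071), and Rpl19 without WT sample 2 or 5 or Mmp13-/- sample 2 (0.0738, 0.153 and 0.0801), so that it passed only with all samples or without Mmp13-/- sample 6. Rpl17 did not pass after the GC and length correction (adjusted p = 0.14, edgeR).

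Rpl36a, a protein near the exit site for tRNA, stood at 15.1, 9.36 and 18.1 CPM in the WT samples, against 98.0, 89.2 and 77.8 CPM in Mmp13-/- (log2 fold change 2.64 ± 0.23, adjusted p = 6.08e-05, edgeR). Like Rpl39 it lies on the X chromosome, and the 4 X-linked core members, which also include Rpl10 and Rps4x, rose (median 1.75). Rpl10, which joins the large subunit in a late step of its assembly, had 178, 125 and 154 CPM in WT and 258, 240 and 211 CPM in Mmp13-/-. Its log2 fold change of 0.63 ± 0.18 (adjusted p = 0.0146, edgeR) was lost without Mmp13-/- sample 1 or 2 or WT sample 4 or 5 (adjusted p up to 0.105). Rps4x, a small subunit protein, had 199, 152 and 179 CPM against 355, 322 and 287 CPM (log2 fold change 0.86 ± 0.18, adjusted p = 0.00278, edgeR).

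The 2 proteins that travel with 5S rRNA, Rpl5 and Rpl11, which also bind the p53 regulator Mdm2 when they are free of ribosomes, both rose. Rpl5 stood at 90.3, 61.7 and 82.8 CPM in the WT samples, against 311, 290.3 and 242 CPM in Mmp13-/-. Rpl11 stood at 69.2, 41.2 and 60.7 CPM in the WT samples, against 166, 156 and 134 CPM in Mmp13-/-. The log2 fold changes were 1.84 ± 0.19 and 1.41 ± 0.20 (adjusted p = 0.000121 and 0.000441, edgeR), and neither gene's genotypes overlapped.

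By contrast, the 3 proteins of the stalk, the flexible arm that recruits the translation factors, went different ways. Rplp1 rose from 207, 169 and 207 CPM in WT to 366, 338 and 351 CPM in Mmp13-/- (log2 fold change 0.86 ± 0.17, adjusted p = 0.00215, edgeR). Its partner Rplp2, with which it forms the dimers of the stalk, was at 194, 192 and 214 CPM in the WT samples, against 133, 126 and 101 CPM in Mmp13-/-. The log2 fold change of Rplp2 was -0.74 ± 0.16 (adjusted p = 0.00409, edgeR), but 0.06 after the GC correction and -0.34 after that for GC content and length (adjusted p = 0.0161). Without scaling factors it was -0.60, with an adjusted p of 0.18 (edgeR). Rplp0, the base that anchors the dimers, had 570.0, 599 and 710 CPM in WT and 686, 554 and 546 CPM in Mmp13-/-. These ranges overlap, and its log2 fold change of -0.07 had a 95% interval of -0.51 to 0.36. With the GC correction Rplp0 passed at 0.57 (adjusted p = 0.0153, edgeR). Per kilobase of coding sequence, Rplp1 and Rplp2 stood at 568 and 579 CPM on average in WT and at 1027 and 347 CPM in Mmp13-/-.

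Rpl14, a surface protein of the large subunit, fell from 273, 284 and 300.4 CPM in WT to 221, 198 and 181 CPM in Mmp13-/- (log2 fold change -0.52 ± 0.16, adjusted p = 0.0216, edgeR). Rpl24, part of a bridge between the subunits, had 97.4, 89.7 and 91.7 CPM against 79.96, 70.2 and 48.7 CPM, which was just past the threshold (-0.49 ± 0.19, adjusted p = 0.0499, edgeR). Rpl28, the remaining large subunit member that fell and named here after its values were seen, had 102, 100.2 and 111 CPM against 87.8, 78.5 and 75.6 CPM (-0.37 ± 0.14, adjusted p = 0.0457, edgeR). None of the 3 passed in every fit that left out 1 sample. Rpl14 was lost without WT sample 4 or 5 (adjusted p = 0.0562 and 0.0759, edgeR), Rpl24 without any 1 sample other than Mmp13-/- sample 1 (0.0557 to 0.0902), and Rpl28 without any 1 sample other than Mmp13-/- sample 6 (0.0508 to 0.127). With the GC correction Rpl14 and Rpl28 turned to 0.03 and 0.24 and Rpl24 was at -0.07, none of them passing. With GC content and length Rpl14 and Rpl24 passed as lower (-0.39 and -0.74, adjusted p = 0.024 and 0.00222, edgeR). Rpl28 did not pass with that correction (-0.11, adjusted p = 0.416, edgeR).

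Large subunit members with the highest levels per transcript length (TPM) were Rplp1, Rplp0, Rpl13 and Rpl8. Rpl13 had 291, 254 and 281 CPM in WT and 285, 259 and 241 CPM in Mmp13-/-. Rpl8, which lies close to the site of peptide bond formation, had 291, 280 and 308 CPM against 284, 258 and 221 CPM. For both the genotypes overlap, and the 95% intervals of the log2 fold change were -0.43 to 0.29 and -0.58 to 0.17. With the GC correction both were higher in Mmp13-/-, at 0.90 and 0.85 (adjusted p = 0.00121 and 0.00103, edgeR).

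In the small subunit, Rps27a and Rps7 rose most. Rps27a, which is made as a fusion with ubiquitin and then cut free, stood at 16.1, 13.2 and 20.3 CPM in the WT samples, against 101, 91.6 and 88.0 CPM in Mmp13-/- (log2 fold change 2.5 ± 0.18, adjusted p = 2.92e-05, edgeR). Rps7, a protein of the small subunit body, stood at 33.0, 24.2 and 39.0 CPM in the WT samples, against 195, 178 and 161 CPM in Mmp13-/- (2.47 ± 0.20, adjusted p = 4.7e-05, edgeR). In both genes every Mmp13-/- sample lay above every WT sample.

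Of the 14 core members listed for the head of the small subunit, which moves during translocation, 9 rose and 0 fell (median 0.67), and of the other 17 small subunit members 8 rose and 2 fell (median 0.27). With the GC correction 12 of the 14 and 15 of the 17 rose and 0 fell in either group (medians 1.40 and 0.96). With GC content and length 10 and 9 rose and 1 fell in each group (0.77 and 0.37). Rps12, a head protein and one of the 4 small subunit members with the highest TPM, had 138, 111 and 142 CPM in WT and 296, 272 and 248 CPM in Mmp13-/- (log2 fold change 1.06 ± 0.17, adjusted p = 0.000753, edgeR). Rps28, near the exit of the mRNA channel, had 149, 126 and 137 CPM against 128, 117 and 98.5 CPM, and Rps9, near its entry, had 236, 223 and 264 CPM against 250, 226 and 203 CPM. Neither passed, with 95% intervals of -0.61 to 0.09 and -0.46 to 0.28. Both were higher in Mmp13-/- with the GC correction (0.45 and 0.69, adjusted p = 0.0152 and 0.00303, edgeR), and with GC content and length Rps28 passed in the opposite direction (-0.62, adjusted p = 0.00206).

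Rps13 and Rps2 were the small subunit members that fell. Rps13, another protein of the small subunit body, stood at 111, 102 and 124 CPM in the WT samples, against 77.3, 72.1 and 59.4 CPM in Mmp13-/- (log2 fold change -0.69 ± 0.16, adjusted p = 0.0048, edgeR). With counts of its near-identical copies added, its log2 fold change was -0.35 and did not pass (adjusted p = 0.10, edgeR). With the GC correction Rps13 did not pass either (-0.16, adjusted p = 0.252, edgeR), but with GC content and length it passed as lower (-0.92, 0.000426). Rps2, which lines the mRNA entry, stood at 441, 441 and 495 CPM in the WT samples, against 355, 312 and 288 CPM in Mmp13-/- (-0.53 ± 0.17, adjusted p = 0.027, edgeR). Rps2 was lost without WT sample 4 or 5 or Mmp13-/- sample 2 (adjusted p = 0.0591, 0.0967 and 0.0601), and with the GC correction it was higher in Mmp13-/- (0.40, adjusted p = 0.0262, edgeR).

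Members were also grouped by the start tract and by whether the gene holds a small nucleolar RNA (snoRNA), which guides rRNA modification. Of the 13 core members with a tract at the annotated start 8 rose and 3 fell, with a median log2 fold change of 0.78. Of the 44 with an entry and no tract at that base, which may still have a TOP tract, 25 rose and 3 fell, with a median of 0.65. Rpl15 and Rpl35, shown above with the longest tracts, rose by 1.30 and 1.51 on the log2 scale, whereas Rplp2, Rpl14 and Rpl28, also shown with a tract, fell. The 30 core members with a snoRNA inside the gene gave 17 rises and 3 falls (median 0.62), and the 47 without one gave 28 rises and 3 falls (0.75).

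Paralogues ran from the lowest to the highest fold change of all members. Of the 7 tested 5 rose, Rpl3l fell and Rpl7l1 did not pass. Rpl3l, which replaces Rpl3 in heart and skeletal muscle, was at 101, 94.1 and 89.1 CPM in the WT samples, against 43.8, 41.4 and 20.3 CPM in Mmp13-/- (log2 fold change -1.42 ± 0.25, adjusted p = 0.00132, edgeR). Rpl3 was at 227, 190.0 and 216 CPM in the WT samples, against 278, 246 and 273 CPM in Mmp13-/- (0.33 ± 0.16, adjusted p = 0.107, edgeR). Rpl3 passed as higher with its copies added (0.65, adjusted p = 0.00868), with the GC correction (0.89, 0.00313), with GC content and length (0.64, 0.00979) and with background subtracted (0.50, 0.0165). Skeletal muscle markers moved with Rpl3l, 10 of 12 falling and 0 rising. Their summed level was 46268 to 54534 CPM in WT and 9050 to 20881 CPM in Mmp13-/-, and it was lowest in Mmp13-/- sample 6, where Rpl3l was lowest as well. Their part in the result was not tested. With the GC correction Rpl3l did not pass (-0.56, adjusted p = 0.0591, edgeR), but with GC content and length it passed as lower (-0.76, 0.0171).

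**Figure D4:**
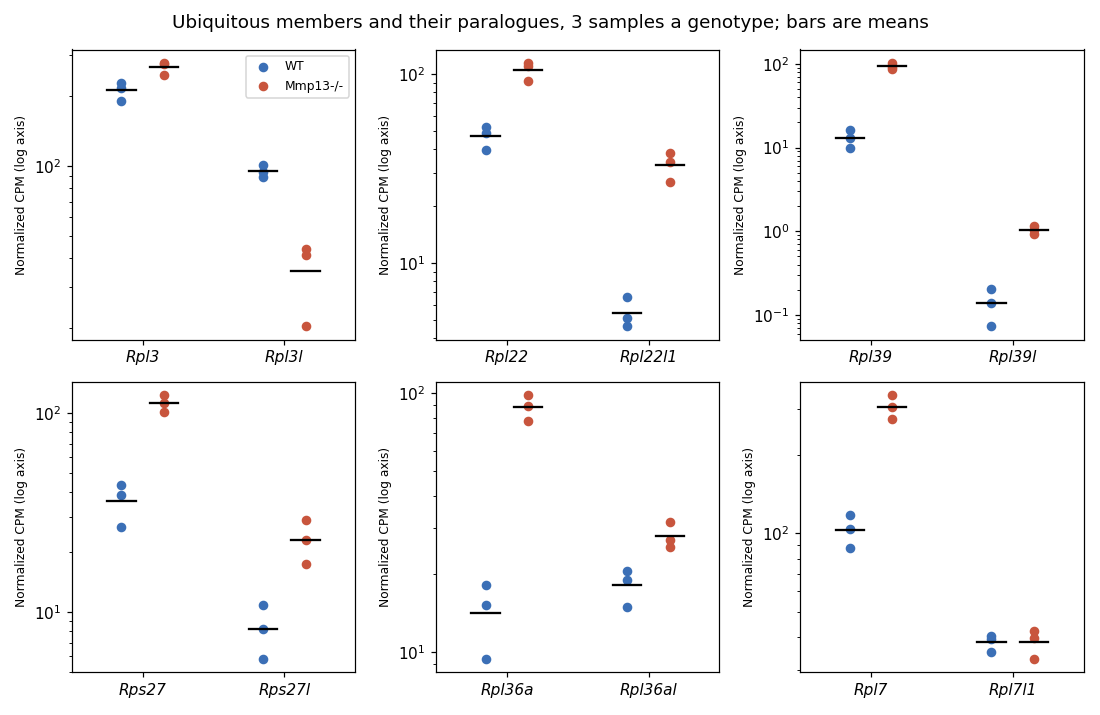
Normalized CPM (log axes, each panel on its own scale) of 6 core members and a paralogue of each in 3 WT (blue) and 3 Mmp13-/- (red) samples, with bars at the means. Rpl3l is lower in Mmp13-/- while Rpl3 is not, Rpl22l1 and Rpl39l are higher along with Rpl22 and Rpl39, and the Rpl7l1 groups overlap.

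Rpl22l1 and Rpl39l rose beside their core partners. Rpl22l1, a paralogue whose level is held down by Rpl22 in several tissues, stood at 5.11, 4.61 and 6.61 CPM in the WT samples, against 38.2, 34.0 and 26.9 CPM in Mmp13-/- (log2 fold change 2.60 ± 0.20, adjusted p = 3.67e-05, edgeR). Rpl22 stood at 48.9, 39.5 and 52.4 CPM against 115, 110 and 91.4 CPM (1.17 ± 0.16, adjusted p = 0.000378, edgeR). Rpl39l, best known from testis, was close to the floor in WT at 0.207, 0.138 and 0.073 CPM and reached 1.14, 0.936 and 1.04 CPM in Mmp13-/- (2.85 ± 0.56, adjusted p = 0.00222, edgeR).

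Rps27l, a p53-responsive paralogue of Rps27, had 8.18, 5.78 and 10.8 CPM in WT and 28.9, 22.9 and 17.5 CPM in Mmp13-/- (log2 fold change 1.49 ± 0.25, adjusted p = 0.000975, edgeR). Rps27 had 43.3, 26.8 and 38.7 CPM against 123, 112 and 101 CPM (1.63 ± 0.19, adjusted p = 0.00018, edgeR). The retrogene copy Rps27rt had 0.829, 0.344 and 0.730 CPM against 1.75, 1.70 and 1.97 CPM (1.5 ± 0.41, adjusted p = 0.0115, edgeR), and reads of Rps27 and Rps27rt may have been split between them in counting. Rps27rt did not pass after the GC and length correction (0.64, adjusted p = 0.25, edgeR).

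Rpl36al, a paralogue of Rpl36a, had 18.9, 14.9 and 20.5 CPM in WT and 31.9, 27.0 and 25.4 CPM in Mmp13-/-, a rise of 0.64 ± 0.16 on the log2 scale (adjusted p = 0.00889, edgeR) that was lost without Mmp13-/- sample 1 or WT sample 4 (adjusted p = 0.0681 and 0.0586), and after the GC and length correction (0.21, adjusted p = 0.174). The coding sequences of both are equally long, and WT levels of Rpl36a and Rpl36al overlapped, while in Mmp13-/- Rpl36a lay above Rpl36al in each sample. Rpl7l1, a paralogue of Rpl7, had 35.1, 39.4 and 40.4 CPM against 42.1, 39.6 and 32.9 CPM, with a 95% interval of -0.32 to 0.32 on the log2 scale. Rpl7 rose from 118, 87.7 and 104 CPM to 338, 306 and 274 CPM (1.57 ± 0.18, adjusted p = 0.000153, edgeR).

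Sequence copies limit how finely single members can be read. In the GENCODE annotation 79 of the 85 ribosomal members had at least 1 copy with 95% identity over 50% of the copy's length, 592 copies in all, and their counts made up 5.45%, 5.58% and 5.34% of the family's counts in WT and 8.26%, 8.14% and 8.53% in Mmp13-/-. Adding the copies gave 52 rises and 4 falls. The core member moved most among those named was Rps3a1, with 142, 104 and 130 CPM in WT and 189, 175 and 160.2 CPM in Mmp13-/-, whose log2 fold change was 0.48 ± 0.17 alone (adjusted p = 0.034, edgeR) and 1.51 with its copies. Without the copies Rps3a1 did not pass when any 1 sample but Mmp13-/- sample 6 was left out (adjusted p = 0.0748 to 0.208, edgeR). Rpl34, with 31.9, 26.6 and 35.3 CPM against 64.2, 65.2 and 56.0 CPM, went from 0.98 to 1.72, and Rpl3 from 0.33 to 0.65. Rpl37, with 67.2, 45.9 and 52.9 CPM against 113, 102 and 97.5 CPM, stayed at 0.91. Rpl39 has no annotated copy of this kind. The search used only the longest reading frame of each member. For Rpl39, whose coding sequence has 153 bases, it could have missed copies with long transcripts. Exons of 28 members overlap another gene on the same strand and those of 19 overlap one on the other strand, and the counting is not stated to use strand.

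Other genes of the translation machinery were split in direction. Of the proteins outside the symbol rule, Rack1, a scaffold on the small subunit head, had 222, 199.6 and 255 CPM against 380.2, 329 and 294 CPM (log2 fold change 0.57 ± 0.18, adjusted p = 0.0233, edgeR) and passed again with Mmp13-/- sample 6 left out but with no other sample left out (0.075 to 0.168), while Fau, whose product is cut from a ubiquitin-like fusion to give a small subunit protein, had 103, 96.0 and 112 CPM against 126, 120 and 102 CPM (0.16 ± 0.15, adjusted p = 0.388, edgeR). Fau passed as higher with the GC correction (1.22, adjusted p = 0.000208), with GC content and length (0.34, 0.0144) and with background subtracted (0.33, 0.0415). Of 6 elongation factors, several of whose mRNAs are known TOP mRNAs in mammals, 1 rose and 4 fell (median -0.65), which became 2 and 0 (median 0.08) with the GC correction and 1 and 1 (-0.14) with GC content and length. Eef1g had 363, 332 and 350.4 CPM in WT and 231, 206 and 175 CPM in Mmp13-/- (-0.77 ± 0.17, adjusted p = 0.00411, edgeR), and Eif5a 159, 186 and 199 CPM against 118, 103 and 98.8 CPM (-0.77 ± 0.16, adjusted p = 0.00301, edgeR). With the GC correction neither passed (-0.22 and 0.05).

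Initiation factors were split, 11 of 36 rising and 10 falling (median -0.05), but 17 rose and 4 fell with the GC correction (0.25) and 14 and 6 with GC content and length (0.14). Eif3m and Eif3e, subunits of the scaffold that loads the small subunit, rose from 11.3, 6.88 and 8.87 CPM to 47.2, 44.9 and 39.2 CPM and from 16.9, 11.2 and 18.3 CPM to 72.8, 71.8 and 58.7 CPM (log2 fold changes 2.28 ± 0.19 and 2.13 ± 0.20, adjusted p = 5.38e-05 and 7.7e-05, edgeR). Among 41 ribosome biogenesis factors 9 rose and 15 fell (median -0.06), against 14 and 1 with the GC correction (0.25) and 12 and 1 with GC content and length (0.27). Npm1, a nucleolar chaperone, rose from 49.99, 38.6 and 45.6 CPM to 119, 120.2 and 90.4 CPM (1.30 ± 0.17, adjusted p = 0.000276, edgeR), and Rrs1, needed for 5S particle assembly, fell from 14.5, 17.6 and 17.7 CPM to 7.94, 8.19 and 7.82 CPM (-1.05 ± 0.15, adjusted p = 0.000424, edgeR; -0.30 and not passing with the GC correction). Of 8 RNA polymerase I subunits, which make the rRNA precursor, 4 rose and 3 fell, Twistnb by 1.09 ± 0.16 and Znrd1 by 0.96 ± 0.21 upward (adjusted p = 0.00053 and 0.00375, edgeR), and 5 rose and 0 fell under either correction.

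Genes listed for control of TOP mRNA translation were mostly lower, 10 of 12 falling and 1 rising (median -0.94). Eif4ebp2, a repressor of cap-dependent initiation, fell from 185, 224 and 185 CPM to 82.5, 80.6 and 61.2 CPM (log2 fold change -1.40 ± 0.17, adjusted p = 0.000221, edgeR). Rptor, a subunit of mTOR complex 1, fell from 101, 118 and 99.0 CPM to 54.5, 51.3 and 48.7 CPM (-1.04 ± 0.14, adjusted p = 0.00033, edgeR), and with the GC correction it was at -0.10 and did not pass. After that correction 3 of the 12 were lower and 0 higher. Of the 10 S6 and ribosomal S6 kinases dropped by the rule 3 rose and 4 fell (2 and 1 with the GC correction), among them Rps6ka2 (-1.42 ± 0.20, adjusted p = 0.000397, edgeR) and Rps6ka4 (-1.11 ± 0.15, adjusted p = 0.000298, edgeR). Of the 78 mitochondrial ribosomal proteins, which build the separate ribosome of that organelle, 13 rose and 28 fell (median -0.26). With the GC correction these counts became 25 and 8, a change of direction of the median to 0.17, and with GC content and length they were 12 and 21 (-0.08).

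**Figure D5:**
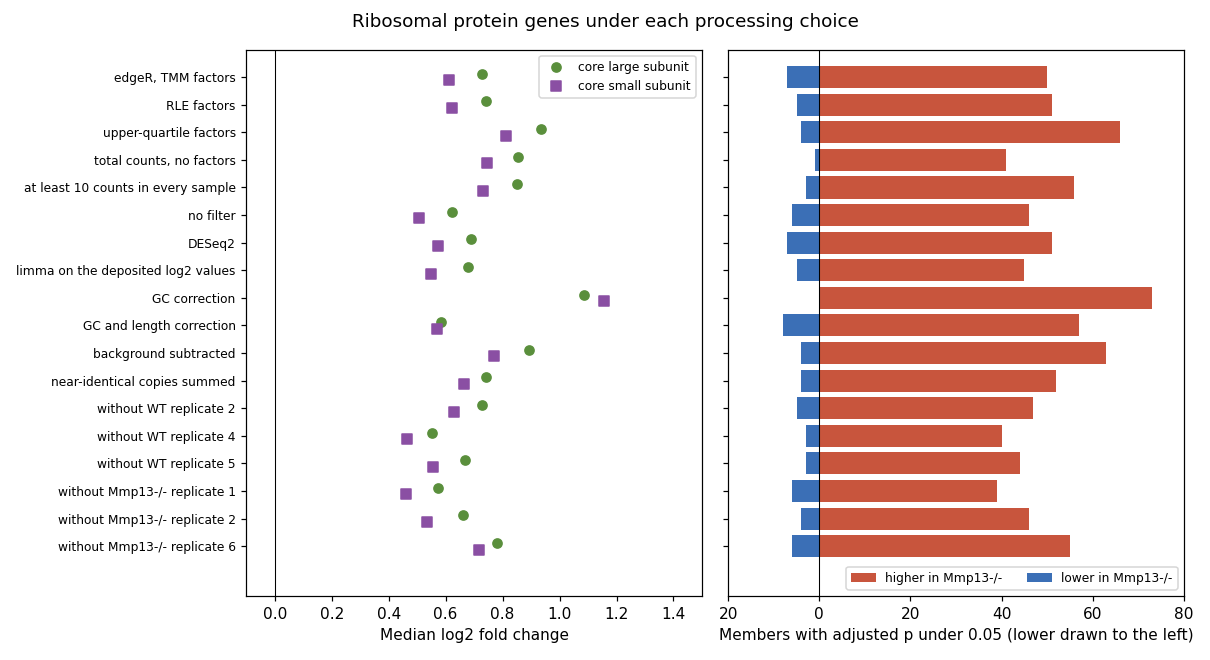
Median log2 fold change of core large (circles) and small subunit (squares) members, and the number of members with adjusted p under 0.05 in each direction (bars, lower drawn to the left of 0), under each processing choice. Medians lie above 0 for every choice shown, rises number 39 to 73, and falls 0 to 8.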

How the data were processed

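Pulp RNA of 3 WT and 3 Mmp13-/- samples was compared by genotype, as given in the labels. The authors' table holds estimated counts per gene, which the authors made from aligned paired-end reads in Strand NGS, and normalized log2 values, which the authors derived from those counts with size factors and centred on each gene's median. The submitters' processing notes name mm10 and DESeq; aligner settings and annotation release are not given in the sources used here. Because counts were estimated, reads shared by a gene and its copies may have been divided between them.

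Estimated counts were rounded and tested over all genes with edgeR 4.0.16 in R 4.3.3 (quasi-likelihood test, TMM factors, its filter on low counts, Benjamini-Hochberg adjustment, no covariates). A call is an adjusted p under 0.05. The study's own procedure was a gene-by-gene test on normalized values. Intervals of fold changes are 95% intervals of the fit, SE is that of the log2 fold change and SD is over 3 samples. Chi-square per degree of freedom over the members was 6.54 to 39.9 between samples of a genotype and 324 to 565 between genotypes, so no sample was a copy of another and counting error was not the main error.

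Alternatives were other scaling factors and filters, DESeq2 1.42.0, limma 3.58.1 on the deposited log2 values, loess corrections (span 0.4) for GC content without and with transcript length, subtraction of a background rate measured on receptor genes, addition of near-identical copies (blastn 2.17.0), and leaving out each sample. Transcripts and positions came from GENCODE M21 (GRCm38), found for 99.8% of genes, and start sites from RefSeq (GRCm38.p6).

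The members and lists were chosen with earlier results of these data known. Named are the 6 members with the largest rise and the 6 with the largest fall among those called, the 4 of each subunit with the highest mean TPM, stalk and 5S proteins, paralogues with their partners, members that failed the filter, Fau, Rack1 and Mmp13, and the 2 genes with the smallest adjusted p of each pathway list (the rule allowed up to 4, and the number was lowered to 2 after the values were seen), with none named for the mitochondrial list. A further gene that the rule names is not reported here.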

Additional observations from a re-analysis of the deposited data

How the results depend on the processing

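No paired analysis was possible because the genotypes share only the replicate number 2. A denominator without satellite-like repeats was not run, and counts of protein-coding genes were used instead. Of the 54 named genes with a fit, 28 kept direction and call in every alternative and 26 did not; of the 50 rises among the members 36 passed in every alternative, and of the 7 falls 0. The number of rises stayed at 39 to 73. The number of falls was 4 with upper-quartile factors, 1 with no factors (an alternative that kept 41 rises), 3 with at least 10 counts in every sample, 0 with the GC correction, 4 with background subtracted, 4 with copies summed, and 3 to 6 with a sample left out. The median log2 fold change of 0.67 was 0.87 with upper-quartile factors, which moved the median of all genes to 0.32, 1.15 with the GC correction and 0.50 to 0.73 with a sample left out. The large minus small subunit difference was -0.070 with the GC correction and 0.013 with GC and length. The ratio of the share of counts was 1.37 to 1.80 with a sample left out, 1.62 over protein-coding counts and 1.61 with copies. The cause of each of these shifts was not tested.

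With the GC correction the sign turned for Rplp2 (0.064), Rps2 (0.40), Rpl14 (0.027), Rpl28 (0.24), Rplp0 (0.57), Rpl13 (0.90), Rpl8 (0.85), Rps28 (0.45), Rps9 (0.69), Rpl7l1 (0.27), Eif5a (0.046) and Rps6ka4 (0.12). With GC and length it turned for Rps2 (0.030), Rplp0 (0.33), Rpl13 (0.36), Rpl8 (0.37), Rps9 (0.11), Rpl7l1 (0.22), Rptor (0.072) and Rps6ka4 (0.19). For genes that had not passed and lay near 0, other choices turned it too. Upper-quartile factors gave Rplp0 0.14, Rpl13 0.13, Rpl8 0.00021, Rps9 0.12 and Rpl7l1 0.20, no factors 0.054 (Rplp0), 0.051 (Rpl13), 0.039 (Rps9) and 0.13 (Rpl7l1), the filter of 10 counts 0.049, 0.049, 0.032 and 0.12 for the same 4, and background subtraction 0.092, 0.091, 0.073 and 0.14. Rpl7l1 was at 0.0079 with RLE factors, 0.017 with copies summed and -0.14 to 0.10 with a sample left out. Rps4l, at 0.03, was at -0.072 with no filter, -0.0077 with DESeq2, -0.035 with limma and -0.11 to 0.13 with a sample left out.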

Other observations

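Some copies of core members outside the symbol rule differed far more between genotypes than the genes they copy. Rps3a3, a processed pseudogene of Rps3a1 on chromosome 13 (GRCm38 chr13:108670603-108671397), had 0.587, 0.378 and 0.511 CPM in WT and 117, 105 and 89.9 CPM in Mmp13-/-, a 210-fold difference (adjusted p = 1.78e-07, edgeR). Rps3a2, on chromosome 14 (chr14:88123017-88123808), had 6.97, 4.75 and 6.17 CPM in WT and 72.6, 70.6 and 62.7 CPM in Mmp13-/- (log2 fold change 3.52 ± 0.18, adjusted p = 3.17e-06, edgeR). Rpl34-ps1, on chromosome 6 (chr6:71124610-71124963), had 0.242, 0.275 and 0.182 CPM in WT and 30.5, 32.5 and 26.5 CPM in Mmp13-/- (6.97 ± 0.22, adjusted p = 1.78e-07, edgeR). In all 3 the Mmp13-/- samples lay close together, including sample 6. Near-identical copies were not all of this kind, since Rps4l, a copy of Rps4x, had 6.59, 8.01 and 7.34 CPM against 7.94, 8.02 and 6.43 CPM, and Rpl37rt, a copy of Rpl37, had 2.76, 3.23 and 2.30 CPM against 5.05, 3.41 and 3.88 CPM (0.57 ± 0.24, adjusted p = 0.0735, edgeR). These 5 come from the list of paralogues, which was chosen with earlier results of these data known, so they do not stand for copies in general. Whether reads of the core genes were assigned to the copies was not tested.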
